A study of Mus musculus with 31 samples.

Results

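The thymus of WT mice was set against the peripheral lymphoid organs of the same animals. The members were 12 of the 27 samples of the series, taken by their labels alone: 3 of thymus, 3 of inguinal lymph nodes, 3 of mesenteric lymph nodes and 3 of spleen. All 12 came from 3 male C57BL/6 mice aged 12 months, kept on a regular diet with free access and fasted for 12 h before killing, and each animal gave all 4 organs. Total RNA was taken from the whole organ, so every value is a mixture over its cell types. The other 15 samples came from male mice of the same age that lack GIT2, a GTPase-activating scaffold protein for ARF proteins. These GIT2KO mice are homozygous gene-trap animals on C57BL/6, and the authors call the change a genomic deletion. It is not limited to a tissue, and 12 of the GIT2KO samples repeat the 4 organs in 3 other animals.

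The thymus is the organ that makes T cells. Its immature cells, the thymocytes, cut and rejoin their T cell receptor genes with the RAG recombinase, pass through a stage that carries both CD4 and CD8, and are tested by epithelial cells of the cortex and then of the medulla. Lymph nodes and spleen hold mature lymphocytes in B cell follicles and T cell zones that stromal chemokines lay out. Lymphocytes enter nodes from the blood through high endothelial venules, while the spleen filters blood directly and in the mouse also makes blood cells.

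RNA was measured on bead arrays with 25697 probes, and each level below is a log2 signal after background correction and quantile normalization. The 14 arrays of these 12 samples had a mean signal of 209 to 591 and found 45.9 to 52.8% of the probes above background (detection p under 0.05). A probe that reached this on at least 3 of the 31 arrays was tested, which left 15291 transcripts, 14365 of them with a symbol, from 10496 named genes. Levels correlated at 0.978 to 0.986 between thymus samples and at 0.849 to 0.912 between a thymus and a peripheral sample. The first principal component held 44.5% of the variance and placed the 3 thymus samples at 69.2 to 88.9 and the 9 others at −31.3 to −18.2. The second held 24.3% and placed the spleens at 39.2 to 76.1. Mesenteric node sample 2 lay apart from the other nodes (lowest correlation within its organ 0.943), and spleen sample 3 was the dimmest, with mean signals of 209 and 220 on its 2 arrays.

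**Figure D1:**
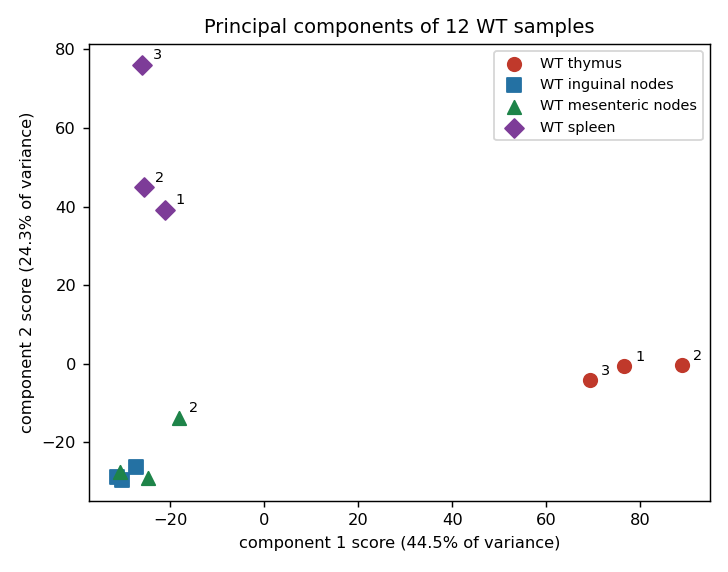
Each point is 1 WT sample placed by the first principal component (horizontal axis, 44.5% of the variance) and the second (vertical axis, 24.3%) of the log2 levels of all tested transcripts, with colours for the 4 organs. The 3 thymus samples lie between 69.2 and 88.9 on the first axis and the 9 peripheral samples between −31.3 and −18.2, while the spleens part from the nodes along the second.

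Between thymus and the mean of the 3 peripheral organs, 3787 of 15291 transcripts (24.8%) were higher and 3459 (22.6%) lower in thymus (limma, Benjamini-Hochberg adjusted p under 0.05), 47.4% in all. More than 2-fold, 1218 (7.97%) were higher and 1345 (8.8%) lower. The 3 thymus values lay above all 9 peripheral values for 2215 transcripts (14.5%) and below all 9 for 1766 (11.5%). Counted by detection, 156 transcripts (1.02%) were above background in every thymus sample and in no peripheral sample, and 88 (0.576%) the other way round. These sets overlap with the counts before them. The median difference over all tested transcripts was 0.01. With so many transcripts called, a list of genes stands out only where its share is far from 24.8% and 22.6%. The lists were chosen with earlier results of these data known, and some hold genes with the largest differences. Their counts and medians are thus descriptions and not tests. In bulk samples such as these, fewer cells of a type and less RNA per cell cannot be told apart.

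**Figure D2:**
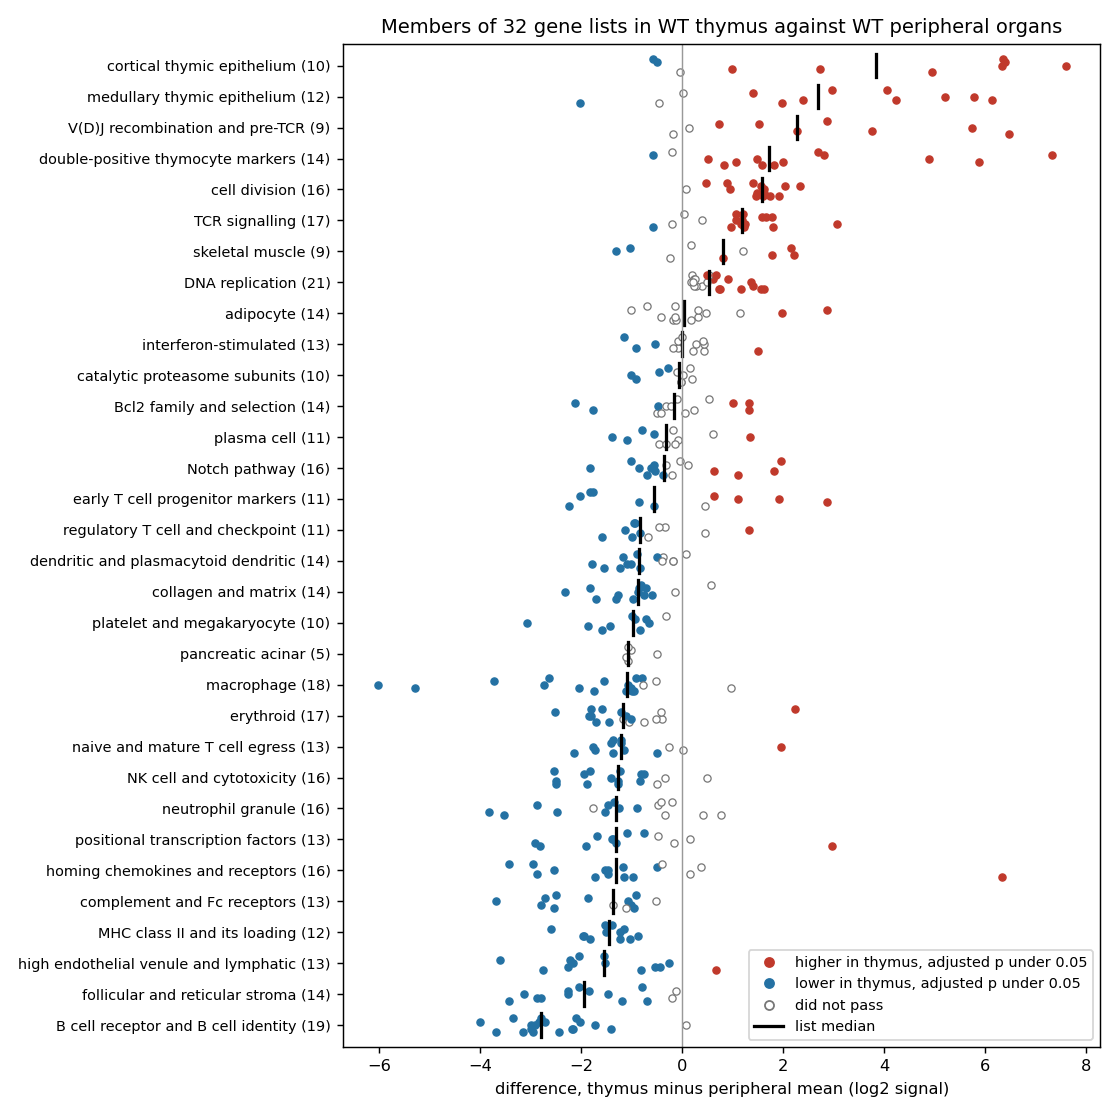
Each row is 1 of 32 gene lists with its number of tested members in parentheses, and each point is a member placed by its log2 difference, thymus minus the mean of the 3 peripheral organs, in WT mice (filled red, higher in thymus, and filled blue, lower, at an adjusted p under 0.05; open, did not pass; bar, list median). Medians run from 3.83 for cortical thymic epithelium to −2.8 for the B cell list, beside 0.01 over all tested transcripts.

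Genes that build the T cell receptor were high in thymus. Of 11 listed genes of V(D)J recombination and the pre-T cell receptor, 9 were tested, 7 were higher in thymus and none lower, with a median difference of 2.27. In all 7 the thymus values lay above every peripheral value, where 14.5% of all transcripts did. Rag1, which encodes the recombinase subunit that cuts DNA, read 12.19, 12.07 and 12.16 in the 3 thymus samples and 5.06 to 6.33 (median 5.53) in the 9 peripheral samples. The thymus samples were alike and far above the highest peripheral sample, and the groups differed by 6.48 ± 0.17 (SE; adjusted p = 1e-19). Its partner Rag2 read 8.26, 8.38 and 8.26 in thymus and 4.49 to 4.61 elsewhere, where it was never above background.

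For such genes the fold is a lower bound, the mean of the measured group over the lowest level counted as detected on each array of the other group. Rag2 was at least 7.4-fold higher in thymus (adjusted p = 8.64e-21). Dntt, the polymerase that adds untemplated bases at the joins, read 10.5, 10.7 and 10.03 in thymus and 4.6 to 4.75 elsewhere, at least 31.9-fold higher (adjusted p = 3.04e-21). Ptcra, the chain that stands in for the alpha chain in the pre-T cell receptor, was lower in range, at 6.8, 7.25 and 6.29 in thymus and 4.92 to 5.67 (median 5.3) elsewhere, a difference of 1.53 ± 0.18 (adjusted p = 1.7e-07). Xrcc6, the Ku70 subunit that holds broken ends, and Lig4, the ligase that joins them, differed by 2.87 ± 0.12 and 2.27 ± 0.17. Prkdc, the DNA-dependent kinase, differed by −0.18 ± 0.22 and Xrcc4, the partner of Lig4, by 0.14 ± 0.18, and neither passed.

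Promoters of Rag1, Ptcra and Dntt are shown because these genes carry the contrast, and E proteins, which bind E boxes such as CAGCTG, drive early T cell genes. The windows are from RefSeq (GRCm38.p6), 300 bases each, 250 before and 50 after the annotated start, printed 5′ to 3′ along the gene's own strand, with CAGCTG in capitals (its reverse complement reads the same).
Rag1 (chr2:101649483-101649782, minus strand): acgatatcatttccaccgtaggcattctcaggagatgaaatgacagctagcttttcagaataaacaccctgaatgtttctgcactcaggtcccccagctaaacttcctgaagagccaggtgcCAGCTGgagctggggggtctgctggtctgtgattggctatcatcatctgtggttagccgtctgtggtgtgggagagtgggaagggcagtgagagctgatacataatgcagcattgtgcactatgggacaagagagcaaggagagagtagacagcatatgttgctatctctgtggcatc
Ptcra (chr17:46763663-46763962, minus strand): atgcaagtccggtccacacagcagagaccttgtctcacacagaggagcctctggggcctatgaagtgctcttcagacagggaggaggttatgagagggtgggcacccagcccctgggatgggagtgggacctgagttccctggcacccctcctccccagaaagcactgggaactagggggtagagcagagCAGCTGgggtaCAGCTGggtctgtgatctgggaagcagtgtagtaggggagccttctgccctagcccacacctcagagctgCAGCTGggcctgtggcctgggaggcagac
Dntt (chr19:41029025-41029324, plus strand): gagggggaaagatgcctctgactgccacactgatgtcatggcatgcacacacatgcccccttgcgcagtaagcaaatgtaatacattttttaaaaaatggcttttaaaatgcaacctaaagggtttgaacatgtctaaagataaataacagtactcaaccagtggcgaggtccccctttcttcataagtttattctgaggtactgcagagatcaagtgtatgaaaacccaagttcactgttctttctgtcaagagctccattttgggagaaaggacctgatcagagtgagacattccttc
The Rag1 window held CAGCTG once, 128 bases before the start. Ptcra held it at 60 and 49 bases before the start and again after it, and Dntt not at all. Among the V(D)J genes, 8 of 9 were matched by name, and 4 of their 9 windows (44.4%) held CAGCTG, beside 16.3% of all 32851 promoter windows. The 4 windows belonged to 3 genes, so by gene it was 3 of 8, beside 4944 of 27025. A match is a run of letters and not evidence of binding.

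Markers of thymocytes that carry both CD4 and CD8 were higher in thymus for 12 of 14 tested members (18 listed) and lower for 1, with a median of 1.71. All 12 lay above every peripheral value, where 14.5% of all transcripts did. Cd8b1, the beta chain of CD8, read 14.31, 14.44 and 14.3 in thymus and 11.52 to 12.83 (median 12.61) elsewhere, a difference of 2 ± 0.12 (adjusted p = 1.5e-12). Peripheral organs also hold CD8 T cells, and spleen was lowest, at a mean of 11.7. Cd4 differed by 1.59 ± 0.22. Arpp21, a regulator of RNA, read 12.43, 12.37 and 11.96 in thymus and 4.57 to 5.86 elsewhere, a difference of 7.32 ± 0.28 (adjusted p = 1.47e-16). It was above background in no node and in 2 spleens, and was at least 114-fold higher than in either kind of node. The water channel Aqp11 (difference 5.87 ± 0.19) and the RNA-cleaving enzyme Endou (4.89 ± 0.33) also stood several log2 units above every peripheral sample. Themis, which tunes receptor signals during selection, differed by 2.69 ± 0.27, and Satb1, an organizer of chromatin in thymocytes, by 1.82 ± 0.1. Cd2, an adhesion receptor of all T cells, differed by −0.2 ± 0.12 and did not pass. The lower member was Cd24a, a marker of immature thymocytes whose probe was not above background in any thymus sample (4.65, 4.85 and 4.69). Its call was lost without the spleen (−0.21), without thymus sample 1 (−0.53) or 3 (−0.55), and with the animal as a block (adjusted p = 0.0743).

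Most genes of T cell receptor signalling followed, with 13 of 17 tested members (20 listed) higher, 1 lower and a median of 1.19. Trat1, an adaptor at the receptor, read 11.61, 11.34 and 11.2 in thymus and 7.64 to 9 (median 8.11) elsewhere, a difference of 3.06 ± 0.23 (adjusted p = 7.77e-11). Lat, the scaffold that receptor kinases phosphorylate, differed by 1.79 ± 0.16, Rasgrp1, which turns on Ras, by 1.66 ± 0.1 and the costimulatory receptor Cd28 by 1.58 ± 0.24. Among the CD3 chains, Cd3d differed by 1.23 ± 0.13 and Cd3e by 1.24 ± 0.11. Spleen was the organ farthest from thymus for Cd3d, by 1.76, against 0.9 for inguinal and 1.02 for mesenteric nodes. The lower member, the phosphatase gene Ptpn22, differed by −0.58 ± 0.16. Its call did not hold without the spleen (−0.34) or without thymus sample 2 (−0.41).

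Markers of the earliest T cell progenitors parted in both directions, 4 higher and 6 lower among 11 tested (16 listed), with a median of −0.56 (0 with the member not above background in thymus set to 0). In such medians a member not above background in a whole group takes its bound, or 0 where it gave none. Bcl11b and Gata3, of the T cell programme, were among the higher members. Hes1 and Dtx1, given below with the Notch pathway, were lower. Bcl11b, which fixes T cell identity, read 13.65, 13.99 and 13.68 in thymus and 9.6 to 11.54 (median 11.03) elsewhere, a difference of 2.86 ± 0.18 (adjusted p = 4.24e-12). Gata3, needed for T cell and helper fates, differed by 1.92 ± 0.17. Also lower were Lyl1, a factor of progenitors that B cells also use (−2.25 ± 0.19), Spib, a factor of B cells and plasmacytoid dendritic cells (−2.03 ± 0.2), and Il7r, the receptor for the survival cytokine IL-7 (−1.76 ± 0.23). Mature B or T cells of the periphery are known to use these 3 genes too, and the part of such cells in these differences was not tested.

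Members of the Notch pathway, which commits progenitors to the T lineage, were higher for 4 and lower for 8 of 16 tested (18 listed), with a median of −0.35 (−0.04 with 4 members at their bound). The share that was higher, 25%, was near the 24.8% of all transcripts, and 50% were lower, beside 22.6%. The lower count fell to 4 without thymus sample 1 or 2, and to 5 without the spleen. The receptor Notch1 read 10.47, 10.75 and 10.32 in thymus and 8.94 to 9.69 (median 9.37) elsewhere, a difference of 1.11 ± 0.15 (adjusted p = 1.64e-06). The ligand Jag2 and the target Hey1 were also higher, by 1.82 ± 0.17 and 1.96 ± 0.26. Hes1, a target that also answers to other signals, differed by −0.85 ± 0.17, and Dtx1, a target high in marginal zone B cells, by −1.82 ± 0.18, most of all against spleen (−2.51). Dll4, the ligand that thymic epithelium presents, read 5.13 to 5.54 in thymus and 4.82 to 5.79 elsewhere, and the groups overlapped.

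In the Bcl2 family and selection list, 3 of 14 tested genes (19 listed) were higher and 3 lower, with a median of −0.16. Each share was 21.4%, near the 24.8% and 22.6% of all transcripts, so the list as a whole did not stand out. Bcl2l1 encodes Bcl-xL, the survival protein of thymocytes with both coreceptors, and read 8.4, 8.5 and 8.14 in thymus and 5.84 to 7.79 (median 7.05) elsewhere, a difference of 1.33 ± 0.27 (adjusted p = 0.000193). Bmf, a killer protein of the BH3-only class, differed by 1.01 ± 0.2. Bcl2a1d, a survival gene of activated lymphocytes and myeloid cells, was lower at −2.13 ± 0.23. Pmaip1, which encodes Noxa, was not above background in thymus and at least 2.74-fold lower (adjusted p = 6.21e-07). Bcl2 itself differed by −0.49 ± 0.21 on its brightest probe and did not pass, while 5 of its 6 tested probes were lower.

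Genes of cell division were the list with the highest share of higher members, 15 of 16 tested (25 listed), with none lower and a median of 1.58. Of these 16, 4 lay above every peripheral value, where 14.5% of all transcripts did. The peripheral organs differed among themselves for 13 of the 16 (F test over the 3 organs, adjusted p under 0.05), beside 34.5% of all transcripts. Summed over the list, the mean level was 8.82 to 9.57 in thymus, 6.91 to 7.29 in inguinal nodes, 7.62 to 8.98 in mesenteric nodes and 7.85 to 8.79 in spleen. The inguinal nodes were far below the thymus, while mesenteric node sample 2 (8.98) reached into its range.

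Top2a, the topoisomerase that untangles chromosomes, read 10.8, 10.63 and 9.94 in thymus and 7.2 to 10.39 (median 8.37) elsewhere, a difference of 1.91 ± 0.3 (adjusted p = 9.31e-06). The groups overlapped through mesenteric node sample 2 alone, since every other peripheral sample lay below the 3 thymus samples. By organ the difference was 3 against inguinal nodes, 1.36 against mesenteric nodes and 1.37 against spleen. Kif11, a motor of the spindle, read 9.43, 9.67 and 8.63 in thymus and 5.69 to 8.44 elsewhere, with no overlap and a difference of 2.34 ± 0.3. Plk1, a kinase of mitosis, differed by 1.47 ± 0.25 overall and by 2.54, 1.02 and 0.86 from inguinal nodes, mesenteric nodes and spleen. Cdk1, the kinase that drives entry into mitosis, read 9.1, 9.19 and 8.22 in thymus and 5.71 to 9.49 (median 7.05) elsewhere, a difference of 1.49 ± 0.36 (adjusted p = 0.00132). It passed against inguinal nodes (2.75) but not against mesenteric nodes (0.9, adjusted p = 0.108) or spleen (0.83, adjusted p = 0.131), and without the inguinal nodes the mean difference of 0.86 did not pass (adjusted p = 0.0677).

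Promoters of Cdk1, Plk1 and Top2a are shown because genes of mitosis often share the cell cycle homology region, in which TTTGAA or a close relative lies near CCAAT boxes. Capitals mark TTTGAA and CCAAT on either strand, so that a match on the opposite strand appears as TTCAAA or ATTGG.
Cdk1 (chr10:69352863-69353162, minus strand): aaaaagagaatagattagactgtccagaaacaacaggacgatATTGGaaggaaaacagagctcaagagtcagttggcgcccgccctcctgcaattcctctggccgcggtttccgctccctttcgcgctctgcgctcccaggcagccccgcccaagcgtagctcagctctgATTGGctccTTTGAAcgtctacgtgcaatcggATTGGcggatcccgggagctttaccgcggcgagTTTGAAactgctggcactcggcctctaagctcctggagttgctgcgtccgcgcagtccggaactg
Plk1 (chr7:122159185-122159484, plus strand): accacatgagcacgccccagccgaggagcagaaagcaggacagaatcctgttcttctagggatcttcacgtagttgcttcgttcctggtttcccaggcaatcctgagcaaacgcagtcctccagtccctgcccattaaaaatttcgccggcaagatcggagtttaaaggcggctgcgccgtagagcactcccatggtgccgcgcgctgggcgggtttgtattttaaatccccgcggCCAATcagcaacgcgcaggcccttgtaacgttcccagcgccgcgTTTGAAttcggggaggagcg
Top2a (chr11:99024140-99024439, minus strand): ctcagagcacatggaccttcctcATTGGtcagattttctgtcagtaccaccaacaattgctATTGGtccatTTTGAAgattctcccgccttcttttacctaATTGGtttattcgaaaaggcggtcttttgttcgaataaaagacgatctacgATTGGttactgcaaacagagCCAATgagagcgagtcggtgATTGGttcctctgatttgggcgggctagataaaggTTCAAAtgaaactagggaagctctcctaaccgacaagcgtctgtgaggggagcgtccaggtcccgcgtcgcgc
Cdk1 held TTTGAA at 71 and 15 bases before the start and CCAAT, reversed, at 208, 80 and 48. Plk1 held CCAAT 14 bases before the start and TTTGAA after it. Top2a held TTTGAA at 179 bases and, reversed, at 23 bases before the start, with 6 CCAAT boxes between 227 and 58 bases. Of the 16 tested division genes 14 were matched, 1 window each, and 11 windows (78.6%) held TTTGAA and 11 (78.6%) CCAAT, beside 17.9% and 37.4% of all windows. None held GCGGGAA, a form of the E2F site that 4.6% of all windows and 34.8% of the 23 windows of the DNA replication genes held.

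DNA replication genes moved less. Of 21 tested (25 listed), 11 were higher and none lower, with a median of 0.54, and none lay above every peripheral value. Against inguinal nodes 19 were higher (20.6% of all transcripts were), against mesenteric nodes 5 (22.2%) and against spleen 4 (23.7%). In either direction, 40% of all transcripts were called against inguinal nodes, 41.8% against mesenteric nodes and 44.7% against spleen. Without the inguinal nodes in the peripheral mean, 6 of 21 were higher, beside 3678 of all 15291 transcripts. The share of the list was then near that of all transcripts. These 3 organ comparisons share the same 3 thymus samples, so their counts are set side by side and are not independent. Mcm7, a subunit of the helicase, read 8.11, 9.18 and 8.82 in thymus and 6.53 to 8.23 (median 7.21) elsewhere, a difference of 1.57 ± 0.29 (adjusted p = 6.84e-05). It differed by 1.71, 1.36 and 1.65 from the 3 organs in the order above. Rrm2, a subunit of the enzyme that makes deoxynucleotides, differed by 2.9 from inguinal nodes, 1.68 from mesenteric nodes and 0.32 from spleen, and the last did not pass (adjusted p = 0.545).

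Thymic epithelium gave the widest differences of the comparison. Of 12 listed genes of cortical epithelium, 10 were tested, 7 were higher and 2 lower, with a median of 3.83 (3.57 with the member not above background at its bound). Tbata, a gene of thymic stroma, had the largest fitted difference of all transcripts. It read 12.37, 12.77 and 12.74 in thymus and 4.52 to 6.46 (median 4.8) elsewhere, a difference of 7.6 ± 0.24 (adjusted p = 2.29e-18). Only 1 of the 9 peripheral samples, a spleen, was above background, so the fitted size rests on background levels, and the bounds were at least 147-fold against inguinal and 148-fold against mesenteric nodes. Ccl25, the chemokine that draws progenitors and thymocytes bearing CCR9, read 12.95, 13.64 and 13.25 in thymus and 6.28 to 8.33 elsewhere. Spleen was its highest peripheral organ at a mean of 7.71, and the difference of 6.34 ± 0.2 was far outside the spread of either group. Prss16, a protease of cortical epithelium used in selecting CD4 T cells, read 10.13, 9.62 and 9.74 in thymus and was never above background elsewhere, at least 21.4-fold higher (adjusted p = 5.2e-19). The keratins Krt8 and Krt18, which mark simple epithelium, differed by 6.4 ± 0.22 and 6.35 ± 0.12, with most peripheral samples at background. Ctsl, the protease that makes the peptides of cortical epithelium, differed by 2.73 ± 0.18. The lower members were Cxcl12 and Bmp4, a chemokine and a growth factor that stroma elsewhere also makes, at −0.49 and −0.57, and neither passed with the animal as a block.

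The medullary list had 12 tested members (13 listed), 9 higher, 1 lower and a median of 2.68 (2.09 with 4 members at their bound). Krt5 and Krt14, the keratin pair of medullary epithelium, were both high. Krt5 read 8.86, 8.04 and 9.45 in thymus and was never above background elsewhere, at least 10.3-fold higher (adjusted p = 1.74e-16). Krt14 read 10.77, 10.12 and 11.32 in thymus and 4.6 to 7.08 elsewhere, a difference of 5.78 ± 0.33. Aire, which lets medullary cells display proteins of other tissues, read 8.1, 7.96 and 9.13 in thymus and 5.14 to 7.23 (median 6.49) elsewhere, a difference of 1.97 ± 0.32 (adjusted p = 2.1e-05). Fezf2, which does this for another set of genes, was at least 3.31-fold higher, and Pax1, a patterning factor of the thymic rudiment, at least 4.64-fold. Trp63, which keeps epithelial progenitors, differed by 5.21 ± 0.16. Thymus sample 2 was the lowest of the 3 for Krt5, Krt14, Krt17 and Aire and the highest for Ccl25 and Pax1. The lower member was Spib, named above among the genes of B cells, and Cd80 and Tnfrsf11a did not pass. Further out, Wfdc2, a secreted protease inhibitor of epithelia, read 12.57, 9.8 and 12.51 in thymus and 5.04 to 5.96 elsewhere.

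**Figure D3:**
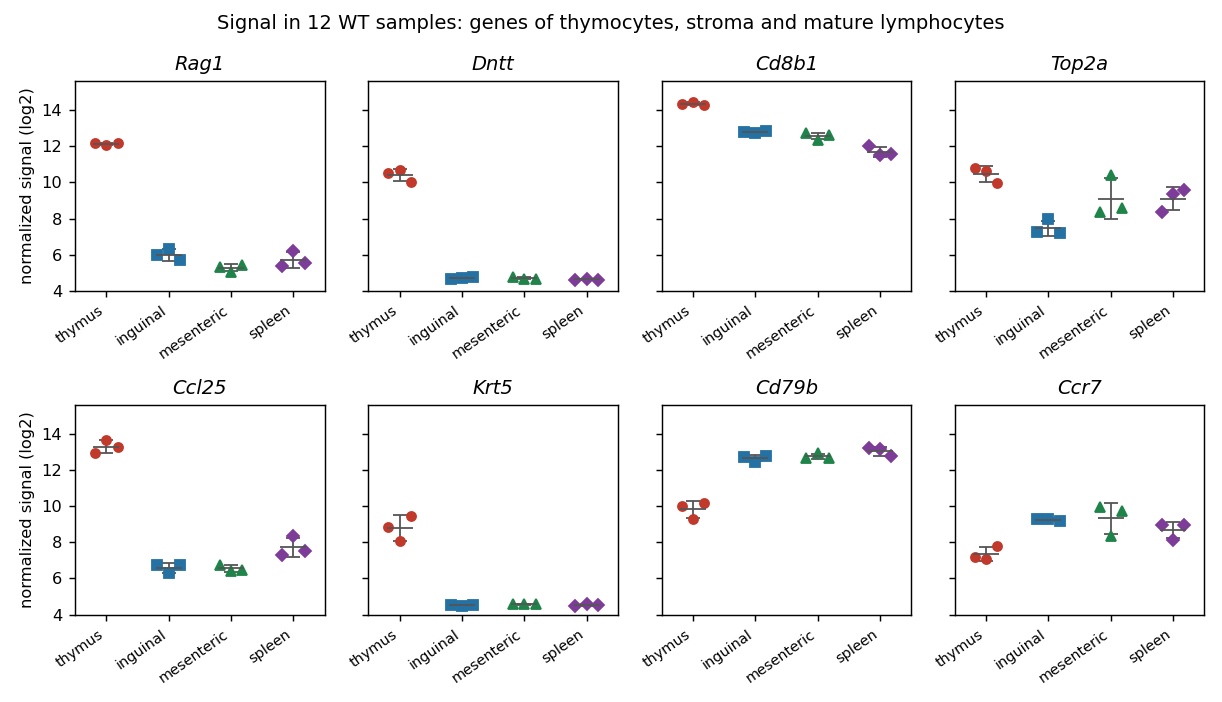
Each panel gives the log2 level (vertical axis) of 1 gene in the 4 WT organs (horizontal axis), with a point per sample, a line at the mean and bars of ± 1 SD over 3 samples. Rag1, Dntt, Ccl25 and Krt5 are high in thymus alone, Top2a in thymus overlaps mesenteric node sample 2 at 10.39, and Cd79b and Ccr7 are lowest in thymus.

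Genes of fat and of endocrine glands differed between the 3 thymus samples. The adipocyte list (14 tested of 17 listed) had 2 higher members and none lower, with a median of 0.03, and its mean level was 8.04, 8.5 and 6.09 in thymus samples 1, 2 and 3, where 13, 14 and 6 members were above background. Cidea, a lipid droplet protein of brown fat, read 8.4, 9.42 and 4.82 in thymus and was never above background elsewhere (4.54 to 4.87). Its mean was at least 4.39-fold higher in thymus (adjusted p = 0.00103). This came from samples 1 and 2, since sample 3 was not above background and lay within the peripheral range. Ucp1, the uncoupling protein of brown fat, read 6.38, 8.66 and 4.58 and passed only with thymus sample 2 (difference of 0.92 and adjusted p = 0.0726 without it). Adipoq, the adiponectin gene, read 9.11, 9.12 and 4.88 in thymus and 5.29 to 11.19 elsewhere, and did not pass.

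Pth, the parathyroid hormone gene, is in no list, and it and Chga were chosen after their values were seen. Pth read 12.52, 11.2 and 5.99 in thymus and was never above background elsewhere, at least 22.4-fold higher (adjusted p = 2.54e-06). Samples 1 and 2 were thus over 5 log2 units above sample 3, the widest spread of any transcript within thymus (SD 3.45), and Chga, a protein of endocrine granules, had the same order at 10.32, 9.21 and 5.02. The SD of Pth was 0.03 to 0.05 in the WT peripheral organs. The p-values of Pth, Cidea and Ucp1 use a spread pooled over all 9 groups and do not measure the spread within thymus alone. The samples that were high in Adipoq were high in Pth too, and the part of the cells that carry these genes in any other thymus value was not tested. A second order, with sample 2 the lowest, appeared in genes of secretory epithelium, also chosen after their values were seen. Bpifa1, a secreted protein of airway epithelium, read 9.37, 4.64 and 9.85 in thymus and Reg3g, an antibacterial lectin, read 6.97, 4.59 and 7.99, and Wfdc2 above had this order. In the skeletal muscle list (9 tested of 16 listed) 4 were higher and 2 lower, with a median of 0.8 (0.18 with 3 members at their bound). Actn3, an actinin of fast fibres, was at least 2.84-fold higher and Mylpf, a myosin light chain, differed by 2.21 ± 0.23, while the skeletal actin gene Acta1 was not above background in thymus.

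B cell genes had the lowest median of the 32 lists. Of 19 tested (24 listed), 18 were lower, none was higher, and all 18 lay below every peripheral value, where 11.5% of all transcripts did. The median was −2.8, and the mean level over the list was 7.26 to 8.19 in thymus and 10.05 to 10.55 elsewhere. Cd79a, a signalling chain of the B cell receptor, read 8.65, 7.97 and 9.1 in thymus and 11.28 to 12.21 (median 11.71) elsewhere, a difference of −3.15 ± 0.21 (adjusted p = 1.1e-11). Cd79b, its partner, read 10.02, 9.26 and 10.15 against 12.46 to 13.2 (median 12.74), a difference of −3 ± 0.22. Both stayed above background in all 3 thymus samples, with sample 2 the lowest. Vpreb3, a chaperone of the immunoglobulin light chain, had the largest difference of the list, −4 ± 0.18, at 5.56, 4.88 and 5.8 in thymus and 9.05 to 9.74 elsewhere. Cr2, the complement receptor of follicular and marginal zone B cells, was not above background in thymus and at least 4.42-fold lower (adjusted p = 1.75e-11), with spleen the farthest organ. Fcer2a, the low-affinity IgE receptor, differed by −3.69 ± 0.22 and Fcmr, the IgM receptor, by −3.34 ± 0.27. Ly6d, which early B cells and also thymocytes carry, differed by 0.07 ± 0.14 and did not pass.

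All 12 genes of MHC class II and its loading were lower, with a median of −1.44. All 12 lay below every peripheral value, where 11.5% of all transcripts did. Their spread over the periphery was small, and the 3 organs differed for 1 of the 12, beside 34.5% of all transcripts. H2-Ab1, a class II chain, read 13.25, 12.54 and 13.74 in thymus and 13.85 to 14.19 elsewhere, a difference of −0.87 ± 0.15 that was −0.56 without thymus sample 2. H2-Ob, the chain of a modulator found mainly in B cells, showed the largest difference, −2.6 ± 0.23, at 8.69, 8.16 and 9.25 in thymus and 10.99 to 11.65 elsewhere. Ciita, the master activator of these genes, differed by −1.38 ± 0.15. Cd74, the invariant chain, differed by −1.16 ± 0.18, and by −0.75 without thymus sample 2.

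Among genes of naive T cells and of exit from the thymus, 10 of 13 tested (16 listed) were lower and 1 was higher, with a median of −1.22. Klf2, the factor that switches on exit receptors, read 9.51, 9.49 and 10.25 in thymus and 11.71 to 12.17 (median 11.87) elsewhere, a difference of −2.14 ± 0.14 (adjusted p = 8.04e-12). The 3 organs were alike, at −2.21, −2.08 and −2.13. Ccr7, the receptor that guides T cells to T zones, read 7.19, 7.07 and 7.8 in thymus and 8.14 to 9.92 (median 9.15) elsewhere, a difference of −1.73 ± 0.24. Foxo1, which drives both Klf2 and Il7r, differed by −1.21 ± 0.14. Cd27, a costimulatory receptor, was the higher member at 13.46, 13.72 and 13.51 against 10.94 to 11.9, a difference of 1.96 ± 0.14. Cd69, which holds cells in tissue, differed by 0.02 ± 0.16 and did not pass.

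Of 11 tested genes of regulatory T cells and checkpoints (13 listed), 6 were lower and 1 was higher, with a median of −0.83. Foxp3, the factor that defines regulatory T cells, read 7.03, 6.7 and 7.12 in thymus and 8.13 to 9.13 (median 8.51) elsewhere, a difference of −1.58 ± 0.2 (adjusted p = 5.9e-07), with all 3 probes lower. Ctla4, their inhibitory receptor, differed by −1.14 ± 0.26. The higher member was Ikzf2, the Helios gene, at 8.88, 8.62 and 8.63 against 6.33 to 8.09, a difference of 1.33 ± 0.25. The list thus held genes on both sides of the comparison.

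Cytotoxic and NK cell genes were lower for 13 of 16 tested (20 listed) and higher for none, with a median of −1.27. Ccl5, a chemokine of effector T and NK cells, read 10.06, 9.36 and 10.95 in thymus and 11.64 to 13.42 (median 12.72) elsewhere, a difference of −2.53 ± 0.23. Klrd1, the CD94 receptor, differed by −2.5 ± 0.22. Eomes, a factor of NK and memory T cells, was at least 4.33-fold lower (adjusted p = 1.43e-08). Prf1, the pore protein perforin, differed by 0.49 ± 0.21 and did not pass over the mean of the organs, with spleen 1.58 below thymus.

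Macrophage genes were lower for 15 of 18 tested (21 listed), with a median of −1.1 and a mean level of 7.98 to 8.62 in thymus and 9.48 to 10.48 elsewhere. The transcript that was lowest in thymus relative to the periphery was here. Cd209b, a lectin of marginal zone and sinus macrophages, read 4.66, 4.67 and 4.59 in thymus, none above background, and 7.5 to 13.27 (median 11.04) elsewhere, at least 38.6-fold lower (adjusted p = 8.37e-13). Its level fell in steps over the organs, from a mean of 13.05 in inguinal nodes to 11.05 in mesenteric nodes and 7.93 in spleen, and the 3 sets of samples did not overlap. The bounds by organ were 200-fold, 50-fold and 5.76-fold. Marco, a scavenger receptor, was at least 25.5-fold lower, at 9.17 to 11.14 in the periphery and none above background in thymus. Siglec1, the CD169 of sinus macrophages, read 5.14, 4.73 and 6.24 in thymus and 7.61 to 10.53 elsewhere, a difference of −3.72 ± 0.33. Timd4, a receptor for dying cells, differed by −2.73 ± 0.3 and Lyz2, a lysozyme, by −2.64 ± 0.27, with 2 of its 3 probes lower. Cd163, the hemoglobin scavenger receptor, differed by 0.96 ± 0.59 and did not pass, at 7.5, 8.39 and 9.16 in thymus and 4.55 to 9.47 elsewhere.

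Among the other genes that were lowest in thymus relative to the periphery were Clec4g, a lectin of sinus endothelium (at least 13.4-fold lower), and Cd55, which restrains complement (at least 16.4-fold). Apol7c, an apolipoprotein L, differed by −4.16 ± 0.34, and Serpina10, a protease inhibitor, by −3.8 ± 0.2. Chst3, a chondroitin sulfotransferase, read 7.7, 5.87 and 7.79 in thymus and 10.63 to 11.06 elsewhere, with thymus sample 2 the lowest.

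Complement and Fc receptor genes were lower for 10 of 13 tested (17 listed), higher for none, with a median of −1.36. C4b, C2 and Cfb, which encode components of the C3 convertases, differed by −2.71 ± 0.22, −2.49 ± 0.21 and −2.53 ± 0.19. C4b read 8.78, 8.61 and 9.06 in thymus and 10.76 to 12.04 (median 11.77) elsewhere, with no overlap. The 3 chains of C1q differed by −0.95 to −1.07, passed against both nodes, and did not pass against spleen (−0.4 to −0.47). Without thymus sample 2 the call on C1qb was lost (−0.77, adjusted p = 0.0539). Fcer1g, the common Fc receptor chain, differed by −1.36 ± 1.34 and did not pass, although its 3 thymus values of 10.16, 9.88 and 10.72 lay below all 9 others and it passed with the animal as a block (adjusted p = 0.000261).

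Dendritic cell genes were lower for 9 of 14 tested (16 listed), with a median of −0.86 (−0.42 with 5 members at their bound). Zbtb46, a factor of classical dendritic cells, read 5.43, 5.11 and 5.41 in thymus and 6.28 to 7.67 elsewhere, a difference of −1.78 ± 0.17. Batf3 and Irf8, factors of cross-presenting dendritic cells, differed by −1.55 ± 0.26 and −1.24 ± 0.16. Siglech, a lectin on plasmacytoid dendritic cells, passed at −1.09 ± 0.28, but at −0.5 without the inguinal nodes it did not (adjusted p = 0.174).

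The stroma that shapes follicles and T zones was lower for 12 of 14 tested genes (15 listed), with none higher and a median of −1.95. The thymus values of 9 members lay below every peripheral value, where 11.5% of all transcripts did. Cxcl13, the chemokine of B cell follicles, read 8.62, 6.73 and 8.1 in thymus and 10.17 to 11.8 (median 11.42) elsewhere, a difference of −3.42 ± 0.29 (adjusted p = 7.92e-10). Thymus sample 2 was again the lowest. Ccl19, a ligand of CCR7 in T zones, differed by −2.87 ± 0.27 and was nearer to thymus in spleen (−1.68) than in the nodes (−3.4 and −3.52). Ccl21a, the other CCR7 ligand, read 11.41, 10.6 and 12.65 in thymus and 11.95 to 13.92 elsewhere, a difference of −1.53 ± 0.25 with overlap between thymus sample 3 and the spleens. Clu, clusterin, differed by −3.14 ± 0.18 and Mfge8, a bridge for dying cells on follicular dendritic cells, by −2.04 ± 0.11. Tnfsf13b, the B cell survival factor BAFF, differed by −2.26 ± 0.2. In the wider list of homing chemokines and receptors, 12 of 16 tested (20 listed) were lower, and Ccl25 was the only higher member.

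Genes of high endothelial venules and lymphatics were lower for 12 of 13 tested (14 listed), with 1 higher and a median of −1.54. The peripheral organs differed for 11 of the 13, beside 34.5% of all transcripts. Glycam1, a ligand of L-selectin on high endothelial venules, read 5.65, 5.37 and 7.43 in thymus, 10.56 to 11.5 in the 6 node samples and 4.69 to 4.85 in spleen, where it was not above background. It was thus lower in thymus than in nodes, by −4.84 and −4.76, and at least 1.69-fold higher than in spleen (adjusted p = 0.00264). Lyve1, a hyaluronan receptor of lymphatic endothelium, was not above background in thymus and 9.27 to 10.96 in nodes, at least 22.4-fold and 21.6-fold lower than inguinal and mesenteric nodes. Against spleen, with 4.76 to 6.22, its difference of −0.57 did not pass (adjusted p = 0.261). Madcam1, an addressin of gut-draining venules and of the splenic marginal sinus, divided the organs otherwise. It was not above background in thymus, at least 6.35-fold lower than mesenteric nodes and at least 5.65-fold lower than spleen, while the difference of −0.68 from inguinal nodes did not pass (adjusted p = 0.134). The higher member was Pdpn, podoplanin of lymphatics and of thymic and nodal stroma, by 0.67 ± 0.2, which rested on the spleen (0.05 without it) and on thymus sample 3 (0.51 without it, adjusted p = 0.0768).

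Blood cell genes rested on the spleen. In the neutrophil list (16 tested of 19 listed) 9 were lower, with a median of −1.3 (−0.62 with 11 members at their bound). Against spleen 14 were lower (21% of all transcripts were), against inguinal nodes 5 (19.4%) and against mesenteric nodes 1 (19.6%), with 3 higher. Without the spleen in the mean, 4 of 16 were lower. S100a8, a calcium-binding protein of neutrophils, read 6.14, 5.61 and 6.16 in thymus, 8.26 to 9.93 in inguinal nodes, 5.46 to 7.77 in mesenteric nodes and 11.33 to 13.69 in spleen. Its difference was −6.66 from spleen and −3.09 from inguinal nodes, and −0.84 from mesenteric nodes, which did not pass (adjusted p = 0.346).

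Erythroid genes were lower for 10 and higher for 1 of 17 tested (24 listed), with a median of −1.18 (−0.76 with 7 members at their bound), and 16 were lower than in spleen. Without the spleen 1 was lower, and without thymus sample 1 or 3 there were 6. Slc4a1, the anion exchanger of red cells, read 4.89, 6.37 and 4.61 in thymus, 4.65 to 5.39 in nodes and 11.48 to 14.3 in spleen, a difference of −8 from spleen and of 0.24 from the mean of the nodes, which did not pass (adjusted p = 0.743). Thymus sample 2 had the highest levels of hemoglobin genes of the 3, with Hba-a1 at 12.11 beside 10.23 and 9.62. The higher member was Sptb, a spectrin that other cells also make, at 7.51, 8.13 and 7.87 against 4.69 to 6.39 (difference 2.23 ± 0.19). Platelet genes were lower for 9 of 10 tested (13 listed), with a median of −0.97 (−0.74 with 5 members at their bound), and for 2 without the spleen. Ppbp, a chemokine of platelet granules, was above background in spleen alone, at least 26.6-fold above thymus. Itga2b, the platelet integrin that mast cells and progenitors share, was lower than in each organ, by −3.33, −2.01 and −3.91.

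Transcription factors that mark position in the body gave each organ its own pattern. Of 13 tested (24 listed), 9 were lower in thymus and 1, Pax1, was higher, with a median of −1.31 (−0.76 with 7 members at their bound). Hoxc6 read 9.42 to 9.87 in inguinal nodes, 8.05 to 9.1 in mesenteric nodes and 4.97 to 5.94 in spleen, and was not above background in thymus. Nkx2-3, a factor of spleen and gut mesenchyme, read 5.83, 5.55 and 5.76 in thymus, 5.95 to 6.08 in inguinal nodes, 9.03 to 9.79 in mesenteric nodes and 9.6 to 10.62 in spleen. Thymus was close to inguinal nodes (−0.3, adjusted p = 0.289) and far from the other organs (−3.82 and −4.35). Tcf21 and Wt1, needed to form the spleen, were above background in spleen alone, at least 11-fold and 9.19-fold above thymus.

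**Figure D4:**
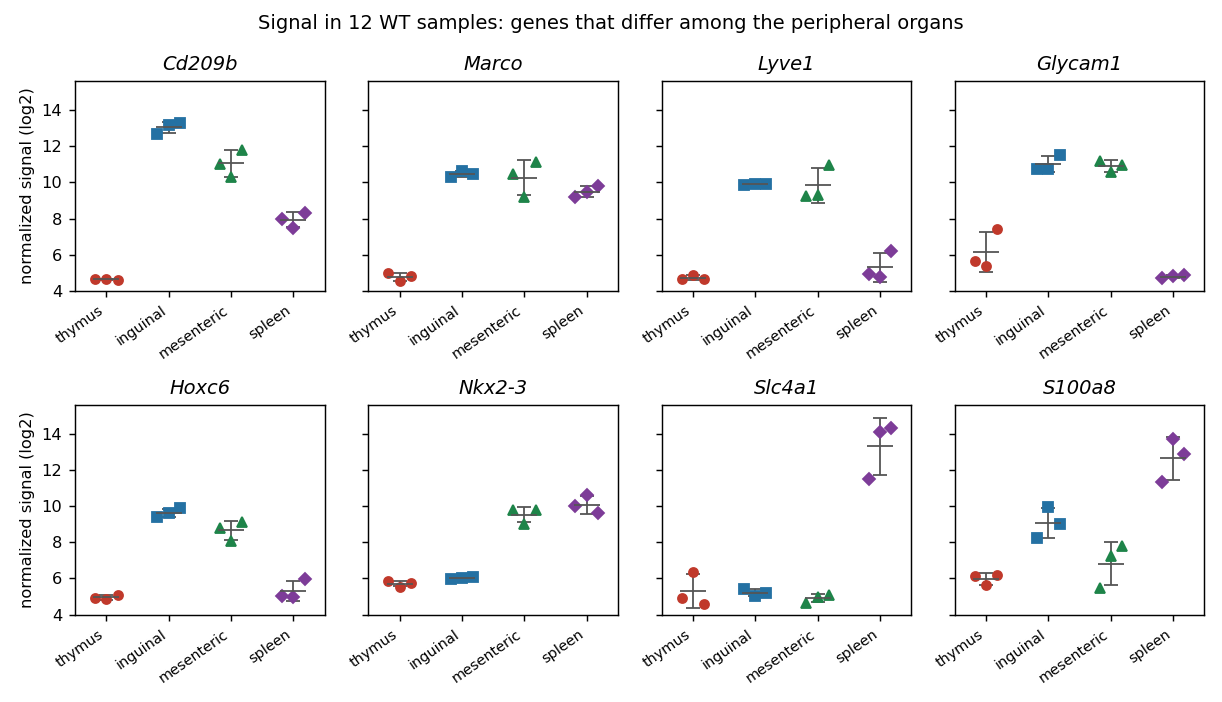
Each panel gives the log2 level (vertical axis) of 1 gene in the 4 WT organs (horizontal axis), with a point per sample, a line at the mean and bars of ± 1 SD over 3 samples. Cd209b steps down from inguinal nodes (mean 13.05) to spleen (7.93) and thymus, Lyve1 and Glycam1 are high in nodes alone, Hoxc6 and Nkx2-3 divide the organs differently, and Slc4a1 and S100a8 are highest in spleen.

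Matrix genes were lower for 12 of 14 tested (19 listed), with a median of −0.87. Bgn, the proteoglycan biglycan, read 10.35, 9.7 and 10.42 in thymus and 11.98 to 12.83 elsewhere, a difference of −2.32 ± 0.18, and Sparc, a collagen-binding protein, differed by −1.83 ± 0.14. Dcn, decorin, was lower than in the nodes (−2.02 and −1.44) and higher than in spleen (0.56). Among proteasome subunits, 4 of 10 tested (11 listed) were lower, and 2 without the mesenteric nodes or without thymus sample 2. Psme1 and Psme2, the activator cap that interferon induces, differed by −0.92 ± 0.11 and −1.02 ± 0.16. Psmb5, the subunit that thymic and immune forms replace, differed by −0.02 ± 0.27. Of 13 interferon-stimulated genes tested (18 listed), 3 were lower and 1 was higher, with a median of 0. The share that was lower, 23.1%, was near the 22.6% of all transcripts. The higher member, Oasl2, read 10.65, 9.95 and 10.82 in thymus and 8.04 to 9.36 elsewhere (difference 1.5 ± 0.25). Rsad2, viperin, was lower than in spleen by −3.26 and differed by 0.13 and −0.32 from the nodes, where it did not pass. In the plasma cell list, 4 of 11 tested (12 listed) were lower, and 2 without the spleen or without thymus sample 2. Irf4, needed for plasma cells, differed by −1.39 ± 0.17. None of 5 tested pancreatic genes (14 listed) passed in either direction, and they were high in 1 sample, mesenteric node sample 3, where Cela2a read 13.97 beside at most 5 in the other 11.

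The same contrast was then made between the GIT2KO samples, which enter no WT mean but share the model, its variance estimate and the filter on probes. Git2 was the check of the labels. Its 3 tested probes read 8.12 to 9.13, 6.29 to 8.68 and 7.9 to 9.32 in the 12 WT samples and 5.51 to 6.56, 5.69 to 7.17 and 5.32 to 6.64 in the 12 GIT2KO samples, so that the second overlapped and the others did not. In WT mice Git2 was higher in thymus than elsewhere, at 9.12, 9.13 and 9.05 against 8.12 to 8.61 on the first probe (difference 0.82, adjusted p = 3.85e-05).

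In GIT2KO mice 3956 transcripts (25.9%) were higher and 3617 (23.7%) lower in thymus. Of these 7573 calls (49.5%) and the 7246 of WT mice, 5533 were shared in direction, which was 76.4% of the WT calls and 73.1% of the GIT2KO calls, and 13 were opposite. Of the WT calls, 6979 (96.3%) had the same sign in GIT2KO mice. Several lists had similar counts in both genotypes. The V(D)J list had 7 of 9 higher in both genotypes (median 2.27 in WT and 2.29 in GIT2KO), cell division 15 and 14 of 16 (1.58 and 1.45), MHC class II 12 of 12 lower in both (−1.44 and −1.7) and B cell identity 18 and 19 of 19 lower (−2.8 and −3.13). Others differed more in their counts. The adipocyte list stood at a median of 0.03 in WT and 1.53 in GIT2KO, with 2 and 9 of 14 higher. DNA replication had 11 and 16 of 21 higher, the plasma cell list 4 and 9 of 11 lower (−0.31 and −0.83), the neutrophil list 9 and 13 of 16 lower (−1.3 and −1.93) and the regulatory T cell list 6 and 9 of 11 lower. The differences between these counts were not tested as lists.

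A test of the difference between the genotypes' contrasts called 165 transcripts (1.08%), 79 with a higher and 86 with a lower contrast in GIT2KO (0.517% and 0.562%), and 2195 had an unadjusted p under 0.05. The number was 95 without GIT2KO thymus sample 2 and 249 without sample 3. Of the 398 list members, 9 (2.26%) were called, 6 higher and 3 lower. Aqp11, a marker of thymocytes above, read 9.69, 9.39 and 9.55 in GIT2KO thymus beside 11.44, 11.38 and 11.31 in WT, and its contrast was lower by −2.13 ± 0.27 (adjusted p = 4.31e-05). Ucp1 read 10.64, 11.27 and 9.27 in GIT2KO thymus beside 6.38, 8.66 and 4.58, and its contrast was higher by 3.84 ± 0.69 (adjusted p = 0.00332). Hba-a1 read 14.52, 14.65 and 11.67 beside 10.23, 12.11 and 9.62, and since 14.65 is the top of the normalized scale, which the spleens reached too, the size of its difference is not exact. Brown fat and blood genes thus differed within as well as between the genotypes' thymus samples, and their part in the other values was not tested. Siglech was lower in GIT2KO thymus, at 5.81, 6.22 and 6.91 beside 7.86, 7.6 and 8.66. For Cd3e and Cd3g, both CD3 chains, the contrast was higher in GIT2KO by 0.65 and 1.1, and the GIT2KO spleens were the lowest samples, at 9.08 to 9.58 for Cd3e.

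Outside the lists, H2-Bl and Wnt8b were above background in the thymus of 1 genotype only. H2-Bl, a class I gene of the MHC, was not above background in WT thymus (4.64, 4.91 and 4.78) and read 9.59, 9.63 and 9.57 in GIT2KO thymus and 5.66 to 6.55 in the other GIT2KO organs. Wnt8b, a Wnt ligand, read 8.65, 8.86 and 8.53 in WT thymus and was not above background in GIT2KO thymus (4.77, 4.71 and 4.97). Gm525 read 10.91, 11.22 and 10.84 in WT thymus and 7.53, 7.59 and 7.76 in GIT2KO thymus. Within each genotype the 3 thymus samples of each gene were close together.

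**Figure D5:**
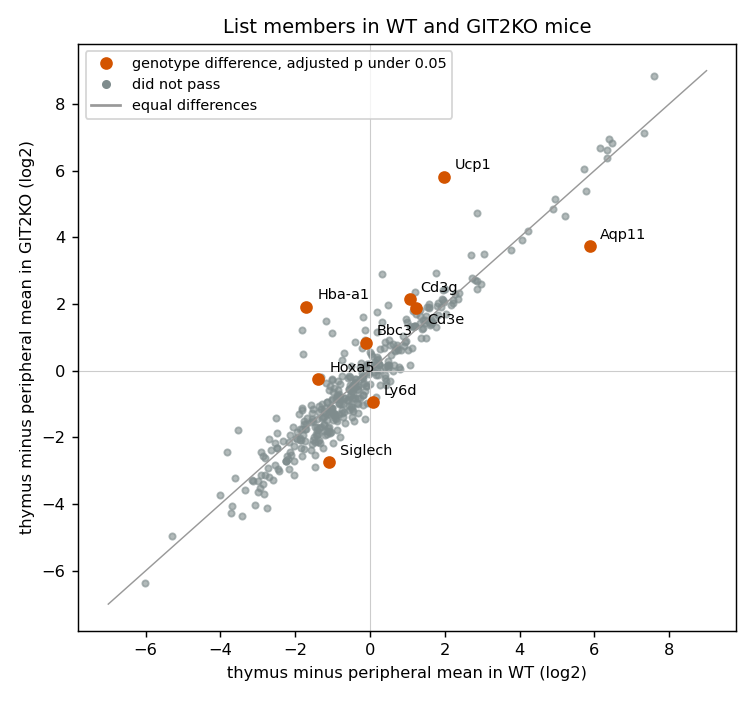
Each point is 1 of the list members, placed by its log2 difference, thymus minus peripheral mean, in WT mice (horizontal axis) and in GIT2KO mice (vertical axis), with a line of equal differences and the 9 members whose contrast differed between genotypes in orange. Most members lie along the line, while Ucp1 and Hba-a1 lie above it by 3.84 and 3.62 and Aqp11 below it by 2.13, where Ucp1 is set against background levels in the periphery and Hba-a1 against levels at the top of the scale.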

How the data were processed

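Total RNA of whole organs was hybridised to bead arrays, 31 for the 27 samples. The authors read the arrays in GenomeStudio (2011.1, per the submitters' processing notes) and deposited, per probe and array, an intensity that was not normalized and a detection p-value. They also deposited a score, the log10 intensity z-transformed within each array, which was recomputed from the intensities (largest difference 5e-10) and used only as an alternative.

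Intensities were background corrected and quantile normalized with limma (3.58.1, R 4.3.3; offset 16) and set to log2, and repeat arrays of a sample were averaged. Probes with a detection p-value under 0.05 on at least 3 arrays were tested. One linear model over 9 groups and 27 samples (18 residual degrees of freedom) with a trended prior gave each contrast, and p-values were adjusted over all 15291 transcripts (Benjamini-Hochberg, 0.05). The peripheral level was the mean of the 3 organ means. Where a gene had several tested probes, the one brightest on average over all samples stood for it. Differences are given as log2 with their SE. Genes named in the text were the members of 32 lists, the 10 genes with the largest differences in each direction, and for the genotypes the list members called and the 5 largest per direction, with exceptions stated.

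Samples were grouped by their labels, which give separate animals as replicates, and the number of arrays limits the precision. Same-numbered samples of a genotype are organs of 1 animal by the labels' animal identifiers, except replicate 3 of the GIT2KO extra lymph nodes, which came from another animal and enter no contrast here. Between WT organs of the same animal, deviations from group means correlated at −0.23 to 0.29 (median 0.045, 18 pairs). Those of different WT animals correlated at −0.24 to 0.26 (median −0.015, 36 pairs). Deviations within a group of 3 sum to 0, which ties these values together, so they cannot show that organs of 1 animal are independent. The animal was a block in the alternatives only. Data with 15291 transcripts were simulated, with 68 changes of 0.5 on the log2 scale, 66 of 1 and 66 of 2. The thymus contrast recovered 29.4%, 86.4% and 100% of them, with 8 false among 151 calls. The Benjamini-Hochberg cut-off depends on the share of changes. Since 47.4% of transcripts were called in the real data, these rates do not give the recovery there. The members and gene lists were chosen with earlier results of these data known. Promoter windows came from a RefSeq table. The 1719 probes without a symbol were not named.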

Additional observations from a re-analysis of the deposited data

Results flagged for a closer look

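Differences between genotypes in the contrast of thymus with the periphery were the only results singled out, since groups of 3 samples were too small for a test of outlying samples. The test of the difference itself called 165 transcripts, and 17 named genes among them are given by their difference of contrasts on the log2 scale, GIT2KO minus WT. Among list members, the difference was 3.84 for Ucp1, of brown fat, and 3.62 for Hba-a1, a hemoglobin chain. Ucp1 was above background in no peripheral sample, and Hba-a1 reached the top of the normalized scale (14.65) in spleens of both genotypes and in 1 GIT2KO thymus, so neither size is exact. It was 0.94 for Bbc3, the killer protein Puma, 0.65 for Cd3e, 1.1 for Cd3g and 1.13 for the positional factor Hoxa5. For Bbc3 (mean 9.48 in the thymus of both genotypes) and Cd3e (12.28 in WT and 12.24 in GIT2KO thymus) the thymus levels were alike and the means of each peripheral organ stood lower in GIT2KO, which was not tested on its own. Members with a lower contrast in GIT2KO were Aqp11 (−2.13), Ly6d (−1.02) and Siglech (−1.65).

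Outside the lists, the difference was 3.42 for H2-Bl, 2.89 for Cox7a1, a muscle and brown fat subunit of cytochrome oxidase, and 2.87 for Fabp3, a fatty acid carrier. H2-Bl was above background in no WT sample, Fabp3 in no peripheral sample of either genotype, and Wnt8b in WT thymus alone, so their differences are fitted against background levels. Cox7a1 read 7.74, 8.72 and 5.49 in WT thymus and 10.68, 11.38 and 9.51 in GIT2KO thymus. Gm525 (−4.48), Wnt8b (−3.82), Fxyd2, a regulator of the sodium pump (−3.49), and Cryba2, a crystallin (−2.33), had lower contrasts in GIT2KO. Cryba2, too, was at background in every peripheral sample, and of the 3 tested probes of Fxyd2, 2 were higher and 1 was lower in WT thymus. Chil1, a chitinase-like protein, differed by −2.59 through the periphery, since it read 4.76 to 5.47 in WT thymus and 4.9 to 5.54 in GIT2KO thymus and reached 10.66 in a GIT2KO spleen.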

How the results depend on the processing

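With a difference over 1 on the log2 scale also asked for, calls fell to 2563 for thymus against the periphery, 2745 against inguinal nodes, 2762 against mesenteric nodes, 2984 against spleen, 2736 in GIT2KO mice and 92 for the difference between genotypes, of which 60.9% were higher in place of 47.9%. Leaving out 1 sample at a time gave 5657 (without thymus sample 2) to 7483 calls for the main contrast, 4925 to 6453, 5152 to 6642 and 5625 to 7201 for the 3 organs, 6315 to 7378 for GIT2KO, 95 to 249 for the genotype difference and 3663 to 5630 for the test among peripheral organs. With the animal as a fixed block in the 12 WT samples there were 6383 main calls, of which 6266 were shared with the 7246, and as a random block 7405. Among 405 named genes the fixed block ended 18 calls and added 9, the random block 0 and 3, and neither turned a direction. Median scaling gave 6204 calls and the deposited z scores 6765. Of 165 alternative comparison counts 157 stayed within 1.5 times, and of 544 list counts 529. List medians were less stable. Of 608, 501 stayed within the SD of that median between the thymus samples, and 107, in 23 of the 32 lists, moved. Of 8100 gene values 7720 kept their side of the threshold, 244 lost it and 127 gained it. The directions that turned were those without the spleen for Alas2 (0.46), Gp1bb (0), Gp5 (0.65), Gp9 (0.78), Kel (0.04), Slc4a1 (0.24), Tcf21 (0.08) and Treml1 (0.06), and without the mesenteric nodes for Lum (0.21). The cause was not tested beyond the organ left out. List counts without an organ or sample were added after the data had been seen. Genes near background have compressed differences, and 3 samples an organ limit what small changes can be called.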
